A study of Mus musculus with 11 samples.

Results

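The genes of oxidative phosphorylation (OXPHOS) were examined in RNA-Seq of whole dorsal root ganglia (DRGs), where the cell bodies of sensory neurons lie among satellite glial cells. Members were chosen by symbol alone: the *Nduf* genes of the A, B, C, S and V series, *Cox4* to *Cox8*, *Atp5*, *Uqcr* and *Sdha* to *Sdhd* in the nucleus, and the *mt-Nd*, *mt-Co*, *mt-Atp* and *mt-Cytb* genes of the mitochondrial genome. This gave 100 of the 36670 genes in the table, 87 nuclear and 13 mitochondrial. Another 12 rows with names of this kind but ending in -ps, or in -ps and a number, were left out. Of the nuclear members, 4 are annotated as processed pseudogenes: *Ndufa11b*, *Ndufb4c*, *Ndufs6b* and *Cox6c2*. Of the 87 nuclear members, 83 had a mean of at least 0.5 FPKM (fragments per kilobase of exon and per unit of library size, a level scaled for gene length and library size) and were tested, as were all 13 mitochondrial members. *Cox7b2*, *Cox8b*, *Ndufa11b* and *Ndufs6b* were too low to test.

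The 11 libraries came from 11 mice: 3 WT controls, 3 WT mice 4 weeks after paclitaxel (PTX), a chemotherapy drug that causes neuropathic pain, 3 *Gpr37l1* KO controls and 2 *Gpr37l1* KO mice 4 weeks after PTX. In each group replicate 3 is labelled female and the others male. The KO line is B6;129S5-Gpr37l1tm1Lex/Mmucd, kept with littermates on a C57BL/6 background, and the ages of the sequenced mice are not given in the sources used here. The study asked what the receptor GPR37L1 of satellite glial cells does in the DRG during pain.

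OXPHOS makes most of the ATP of a neuron. Complexes I and II pass electrons from NADH and succinate to ubiquinone, complex III passes them on to cytochrome c, complex IV passes them to oxygen, and ATP synthase uses the proton gradient that complexes I, III and IV build. The mitochondrial genome encodes core subunits of complexes I, III and IV and of ATP synthase, the nuclear genome encodes all others, and complex II is nuclear alone. Sensory neurons with long axons depend on mitochondria along the axon, and mitochondrial dysfunction has been studied as part of PTX neuropathy.

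The libraries held 52735648 to 80348732 estimated counts. *Gpr37l1* was at 14.6 to 35.7 FPKM in the WT libraries and at 0.21 to 1.15 FPKM in the KO libraries, which do not overlap. All 14 sensory neuron markers and all 8 satellite glial markers were above 0 in every library, with summed levels of 5556 to 6726 FPKM and 1056 to 1487 FPKM. Skeletal muscle markers were also present, at a summed level that ran from 5.27 FPKM in WT PTX 3 to 753 FPKM in KO control 2. WT control 1 stood apart: the row *CT010467* was at 14835 FPKM there and at 903 to 2899 FPKM in the other libraries. The row *Gm23935* was at 12929 FPKM there and at 550 to 2060 FPKM in the others. *mt-Rnr1* was at 720 FPKM against 200 to 318 FPKM, and *mt-Rnr2* at 733 FPKM against 250 to 425 FPKM. What raised these rows in that library was not tested.

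In WT control DRGs the mitochondrial members were far above the nuclear members, as the plot of levels by complex shows. *mt-Co1*, the catalytic subunit of complex IV, was highest at 7006 ± 487 FPKM (SD, n = 3). *mt-Nd3* was the lowest of the mitochondrial members at 555 ± 70.2 FPKM, and *mt-Atp6*, *mt-Cytb* and *mt-Nd1* lay at 3565 ± 48.4, 3384 ± 144 and 3133 ± 76.5 FPKM. These levels do not compare directly. Of the counts given to the member or to a nuclear pseudogene of at least 99.7% identity, *mt-Atp6* held 48.6% to 49.0% and *mt-Nd3* 50.3% to 50.7%. No copy of at least 95% identity over at least 200 bases was found for *mt-Cytb* and *mt-Nd1*. Of the nuclear members, *Atp5b*, the catalytic β subunit of ATP synthase, was highest at 270 ± 20.5 FPKM, followed by its partner α subunit *Atp5a1* at 246 ± 12.4 FPKM, and these ranges overlapped over the 3 mice. In complex IV, *Cox6a1* (192 ± 32.1 FPKM), *Cox8a* (180 ± 24.1 FPKM) and *Cox4i1* (166 ± 38.1 FPKM) led, and their SDs were larger than the gaps between them. The highest members of the other complexes lay close together: *Ndufb3*, an accessory subunit of complex I, at 74.2 ± 10.7 FPKM, *Sdha*, the flavoprotein of complex II, at 72.2 ± 4.79 FPKM, and *Uqcrh*, the hinge protein of complex III, at 68.6 ± 13.3 FPKM. The median over tested nuclear members was 28.4 FPKM in complex I (36 members), 56.7 FPKM in complex II (4 members), 56.6 FPKM in complex III (8 members), 53.5 FPKM in complex IV (18 members) and 44.4 FPKM in ATP synthase (17 members). The FPKM followed the length of all annotated exons of a gene, so members with long annotated exons, such as *Ndufb2* (5628 bases) at 5.48 ± 0.351 FPKM, read low against members with short gene models.

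**Figure D1:**
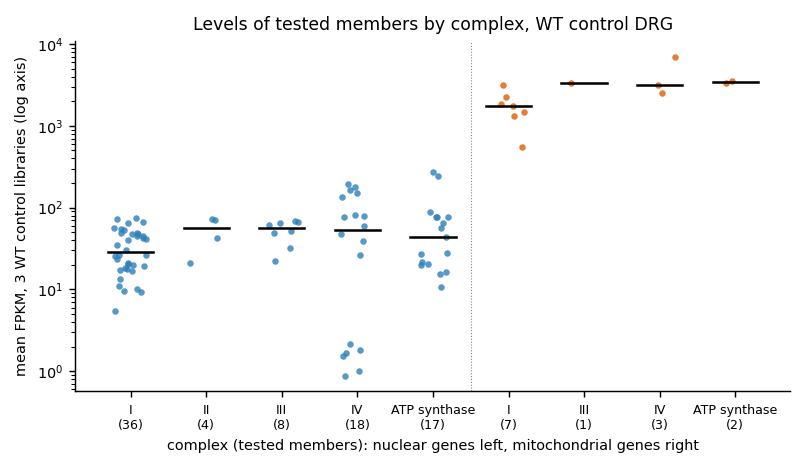
Each point is 1 tested member, placed by its complex (x axis) and its mean FPKM over the 3 WT control libraries (y axis, log scale); black lines are medians. The 13 mitochondrial members run from 555 to 7006 FPKM, above the highest nuclear member at 270 FPKM, and a group of complex IV isoforms sits near 1 FPKM.

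Complex II is small enough to give in full. *Sdha* was at 70.0, 68.9 and 77.7 FPKM in WT controls, 73.9, 76.0 and 78.2 FPKM in WT PTX, 74.5, 74.0 and 75.8 FPKM in KO controls, and 78.1 and 79.3 FPKM in KO PTX. *Sdhb*, the iron-sulfur subunit, ran from 29.2 FPKM in KO PTX 3 to 47.9 FPKM in WT control 1. *Sdhd*, a membrane anchor, ran from 60.7 FPKM in KO PTX 3 to 75.9 FPKM in WT PTX 2. The groups overlapped for *Sdhb* and *Sdhd*. *Sdhc*, the other anchor, is described with the comparison of genotypes.

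No member passed the test in any comparison. In the edgeR quasi-likelihood test with Benjamini-Hochberg adjustment over 15087 genes, 0 of 83 nuclear and 0 of 13 mitochondrial members were called for the PTX effect in either genotype, for KO against WT in controls or after PTX, or for the difference of the PTX effect between genotypes. The background was as low: the test called 0.00663% of all genes in each comparison except KO against WT after PTX, where it called 0.0133%. DESeq2 called more genes in all, with PTX 2.05% in WT and 0.186% in KO, between genotypes 0.278% in controls and 0.0597% after PTX, and 0.0795% in the interaction, and again 0 members in each. Limma on log2(FPKM + 1) also called 0 members. A fold change below is on the log2 scale of the edgeR fit unless stated.

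For PTX in WT, the members of the 2 genomes leaned in opposite directions, within small folds. The log2 fold change was below 0 for 73 of 83 nuclear members, with a median of -0.13, and above 0 for 13 of 13 mitochondrial members, with a median of 0.20. The median over all 15087 tested genes was -0.01. In these whole ganglia, fewer cells of a type and less RNA per cell cannot be told apart. At an unadjusted p under 0.05, 2 nuclear members were lower and 0 higher, and 1 mitochondrial member was higher, where 6.87% of all genes were lower and 6.59% higher at that level, 13.5% in all. These counts depended on single libraries. Without WT control 2 they were 22 nuclear (26.5%) and 3 mitochondrial members (23.1%), beside 15.7% of all genes. Without WT control 1 they were 1 (1.2%, beside 10.1%) and 0, and without WT PTX 3 both were 0. Without KO control 3 they were 5 of 83 and 4 of 13, beside 1954 of 15087 genes. Without any other library they were 2 or 3 and 0 to 3. Macrophage markers also differed in this comparison, with 8 of 9 lower at an unadjusted p under 0.05 and 0 called, and a summed level of 36.36 to 46.9 FPKM in WT controls and 25.3 to 30.54 FPKM in WT PTX. At that level 4 of 14 sensory neuron markers were lower and 0 higher, with 0 called and a median log2 fold change of 0.03 over the 14. Of 8 satellite glial markers, 1 was lower and 0 higher. The part of the marker genes in the members' values was not tested. By complex, the median was -0.14 in complex I, -0.03 in complex II, -0.16 in complexes III and IV, and -0.14 in ATP synthase.

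**Figure D2:**
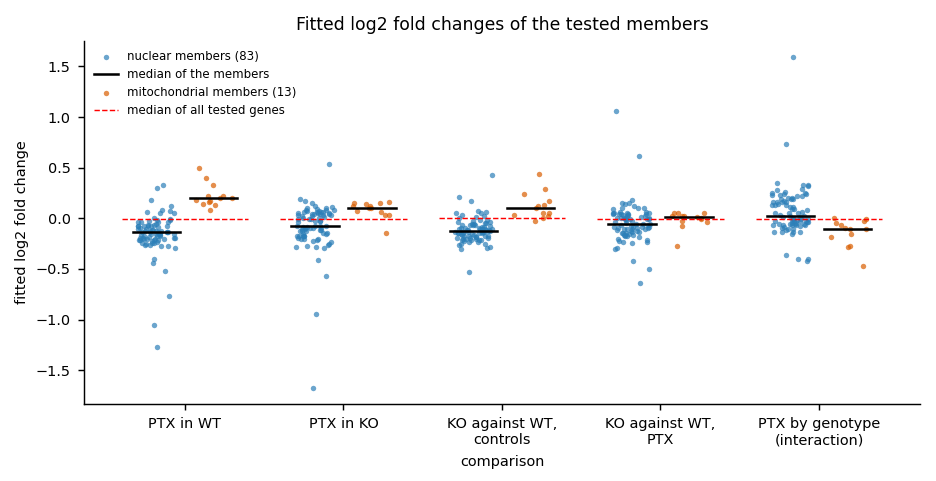
Each point is the fitted log2 fold change (y axis) of 1 tested member in 1 comparison (x axis); nuclear members are blue, mitochondrial members orange, black lines their medians and red dashed lines the median of all tested genes. For PTX in WT the nuclear median is -0.13 and the mitochondrial median 0.20; none of the points passed the test.

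The size of the nuclear shift depended on which WT controls were used. WT control 1 held the highest FPKM of all 11 libraries for 67 of the 83 tested nuclear members, and the summed nuclear FPKM was 4874 there. The summed nuclear FPKM was 3857 and 4035 in the other WT controls, 3930, 4092 and 3756 in WT PTX, 4027, 3695 and 4123 in KO controls, and 4122 and 3541 in KO PTX. Apart from WT control 1, the 4 groups overlapped. Without WT control 1 the nuclear median for PTX in WT was -0.01, with 48 members below 0 and 35 above. Without WT control 2, the WT control with the lowest nuclear sum, it was -0.23, with 77 members below 0. In WT control 1 the 1615 other protein-coding genes with under 2000 exon bases were also high, by a median of 0.20 on the log2 scale, and the 52 short nuclear members were high by 0.36. The 29 nuclear members of at least 2000 exon bases were high by 0.21 there, and the 11337 long genes of the rest were low by a median of -0.05. With the length trend of each library removed, an alternative chosen after the data were seen, the nuclear median for PTX in WT was -0.07.

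The median over mitochondrial members did not depend on WT control 1 in this way, and 0 of the 13 members passed the test with or without it. Without WT control 1 that median was 0.20 and all 13 members stayed above 0. The summed mitochondrial FPKM was 33228, 36335 and 36261 in WT controls and 40717, 36982 and 45482 in WT PTX, so the groups did not overlap for this sum, although WT PTX 2 lay close to the controls. Without WT PTX 3, the highest of them, the median was 0.10 and 11 of 13 members stayed above 0. KO controls had 36654, 42878 and 34595 FPKM and KO PTX 37586 and 46091 FPKM, and these ranges overlapped. The ratio of the mitochondrial to the nuclear sum was 6.82 in WT control 1, the lowest, and 13.02 in KO PTX 3, the highest.

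**Figure D3:**
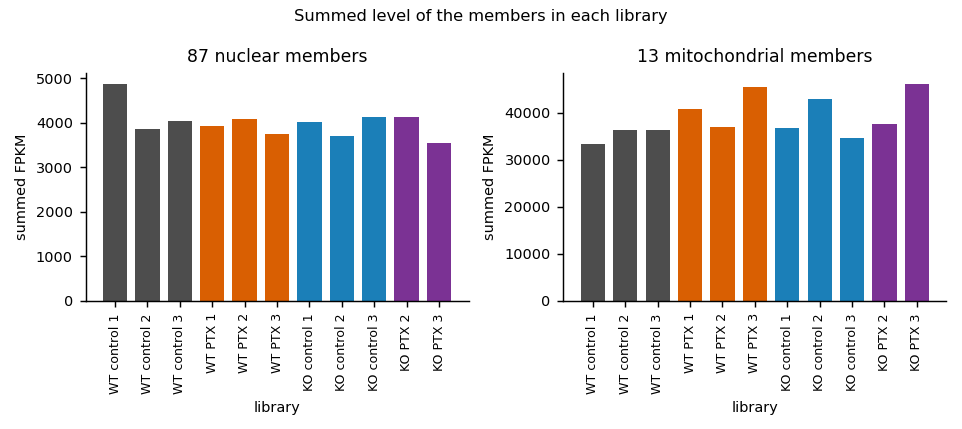
Bars give the summed FPKM (y axis, from 0) of the 87 nuclear members (left) and the 13 mitochondrial members (right) in each library (x axis), coloured by group. WT control 1 is highest for the nuclear sum at 4874 and lowest for the mitochondrial sum at 33228; WT PTX 3, KO control 2 and KO PTX 3 have the highest mitochondrial sums, 45482, 42878 and 46091.

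Among single mitochondrial members, *mt-Nd5*, a proton-pumping subunit of complex I, had the smallest p for PTX in WT. It was at 983, 1450 and 1563 FPKM in WT controls and at 1720, 1547 and 2009 FPKM in WT PTX. The groups overlapped, since WT control 3 lay above WT PTX 2. Its log2 fold change was 0.40 (SE 0.16, 95% interval 0.06 to 0.75; adjusted p = 0.335 in edgeR). Without WT control 1, where *mt-Nd5* was lowest, its log2 fold change was 0.25 (adjusted p = 0.582 in edgeR). *mt-Co1* was at 6482, 7443 and 7094 FPKM in WT controls and at 7909, 7694 and 8540 FPKM in WT PTX, with no overlap, a log2 fold change of 0.20 (SE 0.11) and an adjusted p of 0.43 in edgeR. *mt-Cytb*, the mitochondrially encoded subunit of complex III, was at 3281, 3324 and 3549 FPKM and then at 3895, 3586 and 4372 FPKM, also with no overlap (log2 fold change 0.22, SE 0.12, adjusted p = 0.424 in edgeR). These were the 2 of 13 mitochondrial members, 15.4%, whose libraries were all higher after PTX. Of all tested genes, 6.81% had all WT PTX libraries above all WT controls, and 7.37% below.

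Of the nuclear members, 3 of 83 (3.61%) were higher and 2 of 83 (2.41%) lower in all WT PTX libraries, both shares below that background. Both lower members were genes of subunit c of ATP synthase, the subunit that forms the rotating ring. *Atp5g1* was at 20.1, 19.9 and 20.2 FPKM in WT controls and at 18.5, 17.98 and 14.1 FPKM in WT PTX, a log2 fold change of -0.26 (SE 0.10, adjusted p = 0.319 in edgeR). *Atp5g2* was at 30.3, 25.1 and 24.9 FPKM and then at 22.8, 23.8 and 20.4 FPKM, a log2 fold change of -0.26 (SE 0.11, adjusted p = 0.354 in edgeR). *Atp5g3*, the third gene for this subunit, was at 76.4, 59.1 and 60.3 FPKM in WT controls and at 57.4, 63.4 and 42.8 FPKM in WT PTX, with overlap. Reads of *Atp5g1* and *Atp5g2* are shared with near-identical processed pseudogenes: *Gm10039*, with 99.8% identity to *Atp5g1* over 411 bases, was at a mean of 64.9 FPKM over 11 libraries. With the counts of such copies added, an alternative chosen after the data were seen, the log2 fold change of *Atp5g1* was -0.24 (adjusted p = 0.376 in edgeR). The higher members were *Ndufs1*, *Uqcrc2* and the pseudogene *Ndufb4c*, whose log2 fold change of 0.30 (SE 0.17, adjusted p = 0.451 in edgeR) was the largest of the 3.

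For PTX in KO, 2 libraries stood against 3, and nuclear members split 33 above 0 to 50 below, with a median of -0.08. The mitochondrial members were above 0 in 12 of 13, with a median of 0.11. At an unadjusted p under 0.05, 0 members of either set differed, against 4.32% of all genes, 2.57% lower and 1.75% higher. The nuclear count was 7 without KO PTX 2 (8.43%, beside 5.83% of all genes), 6 without KO control 2 (7.23%, beside 5.09%), 5 without WT control 1 (6.02%, beside 6.19%) and 3 without WT control 2 (3.61%, beside 5.05%), and the mitochondrial count was 1 without KO control 2. All KO PTX libraries were above all KO controls for 8 of 83 nuclear members (9.64%) and below for 8 (9.64%), beside 11.3% and 10.4% of all tested genes. None of the 13 mitochondrial members separated. *Ndufv3*, a small subunit of the flavoprotein arm of complex I, was at 16.1, 16.1 and 17.02 FPKM in KO controls and at 18.5 and 18.5 FPKM in KO PTX (log2 fold change 0.17, SE 0.08, adjusted p = 0.999 in edgeR). *Cox6a1* was at 173, 171 and 179 FPKM and then at 182 and 193 FPKM, and *Cox8a* at 173, 166 and 164 FPKM and then at 179 and 183 FPKM. *Atp5g2* was below, at 23.9, 23.0 and 27.0 FPKM and then at 22.9 and 18.2 FPKM (log2 fold change -0.25, SE 0.12, adjusted p = 0.999 in edgeR). The 2 KO PTX libraries differed from each other: KO PTX 3 was the lowest of all 11 libraries for 46 of 83 nuclear members and the highest for 7 of 13 mitochondrial members, while KO PTX 2 was the lowest for 1 nuclear member and the highest for 0 mitochondrial members. Without KO PTX 3 the nuclear median was 0.03 and the mitochondrial median -0.01. Other markers also differed in this comparison at an unadjusted p under 0.05, with 0 called. Lower were 5 of 6 fibroblast, 3 of the 14 tested skeletal muscle and 2 of 9 macrophage markers. Higher were 3 of the 4 tested spinal cord glia markers. The fibroblast sum was 163.23 to 208.08 FPKM in KO controls and 96.52 and 170.12 FPKM in KO PTX, which overlap. The summed level of all 9 spinal cord glia markers was 23.29 FPKM in KO PTX 3 and 2.45 to 10.08 FPKM in the other libraries, and *Mog*, *Olig1*, *Olig2* and *Opalin* were at 0 in 4 to 7 libraries. The part of these markers in the members' values was not tested.

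KO against WT in controls uses the same WT controls as PTX in WT, so both share WT control 1. Nuclear members were below 0 in 72 of 83 with a median of -0.13, and mitochondrial members above 0 in 12 of 13 with a median of 0.10. Without WT control 1 the nuclear median was 0.01, with 46 members above 0 and 37 below. At an unadjusted p under 0.05, 3 nuclear members (3.61%) were lower and 0 higher, beside 3.58% of all genes lower and 3.96% higher, 7.54% in all. The nuclear count was 18 without WT control 2 (21.7%, beside 9.56% of all genes), 17 without KO control 3 (20.5%, beside 9.86%) and 0 without KO control 2, and 1 to 3 without any other library. The mitochondrial count was 6 of 13 without KO control 3, beside 9.86% of all genes, and 2 of 13 without WT control 2 (15.4%, beside 9.56%). At the same level 4 of 9 macrophage markers were lower, with a summed level of 31.51 to 35.44 FPKM in KO controls. Of 14 sensory neuron markers 2 were lower and 0 higher, and 2 of 14 tested skeletal muscle and 2 of 7 endothelial cell markers were higher. The part of these markers in the values of the members was not tested. In 5 of 83 nuclear members (6.02%) all KO controls were below all WT controls, beside 4.73% of all genes, and none separated upward, beside 4.55%. *Sdhc*, a membrane anchor of complex II, was among them, at 21.6, 19.8 and 21.1 FPKM in WT controls and 18.9, 16.4 and 18.3 FPKM in KO controls. Its log2 fold change was -0.22 (SE 0.08, 95% interval -0.39 to -0.05; adjusted p = 0.657 in edgeR). *Ndufb5*, an accessory subunit of complex I, was at 11.4, 11.3 and 10.6 FPKM in WT controls and 10.5, 7.94 and 10.2 FPKM in KO controls (log2 fold change -0.21, SE 0.13, adjusted p = 0.689 in edgeR). *Atp5g1* was at 17.1, 16.8 and 18.9 FPKM in KO controls, below the WT controls given above (log2 fold change -0.19, SE 0.10, adjusted p = 0.664 in edgeR).

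After PTX, KO against WT gave nuclear members below 0 in 52 of 83 with a median of -0.05, and mitochondrial members above 0 in 8 of 13 with a median of 0.02. At an unadjusted p under 0.05, 1 nuclear member was lower (1.2%) and 0 higher, beside 1.74% of all genes lower and 1.81% higher, 3.55% in all, and this was *Sdhc*. The count was 7 without KO PTX 2 (8.43%, beside 7.23%), 4 without WT control 1 (4.82%, beside 5.5%) and 2 without WT control 2 (2.41%, beside 3.98%). The mitochondrial count was 1 of 13 without WT PTX 2, beside 478 of 15087 genes. With all libraries, 2 of the 4 tested spinal cord glia markers were higher at this level, with 0 called. Lower were 1 of 6 fibroblast and 1 of 14 sensory neuron markers. Of 8 satellite glial markers, 1 was higher and 1 lower. The part of these markers in the members' values was not tested. *Sdhc* was at 19.1, 20.8 and 18.2 FPKM in WT PTX and at 15.6 and 16.0 FPKM in KO PTX. Its log2 fold change was -0.29 (SE 0.09, 95% interval -0.48 to -0.10; adjusted p = 0.993 in edgeR), so *Sdhc* was lower in all KO libraries than in all WT libraries of the same treatment without passing the test. The part of strain background of the KO line in this difference was not tested. All KO PTX libraries were above all WT PTX libraries for 5 nuclear members (6.02%) and below for 8 (9.64%), beside 10.7% and 9.58% of all genes. *Ndufb3* was at 81.3, 80.4 and 75.7 FPKM in WT PTX and at 75.6 and 51.4 FPKM in KO PTX, where 75.7 and 75.6 nearly touch (log2 fold change -0.31, SE 0.15, adjusted p = 0.993 in edgeR). *Ndufa4l2*, the low paralog of the complex IV subunit *Ndufa4*, was at 1.27, 1.43 and 1.10 FPKM in WT PTX and at 0.71 and 0.89 FPKM in KO PTX (log2 fold change -0.63, SE 0.33, adjusted p = 0.993 in edgeR). *Cox6c2*, a processed pseudogene, was at 1.01, 1.23 and 0.69 FPKM and then at 1.55 and 1.47 FPKM (log2 fold change 0.61, SE 0.48, adjusted p = 0.993 in edgeR). *Cox6a1* and *Cox8a* were also above in all KO PTX libraries, by 0.18 (SE 0.12) and 0.16 (SE 0.11).

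The effect of PTX in KO less that in WT had a median of 0.03 over nuclear members and of -0.10 over mitochondrial members. At an unadjusted p under 0.05, 1 nuclear member was above 0 (1.2%) and 0 below, beside 3.12% of all genes above and 3.18% below, 6.3% in all. The count was 6 without WT control 2 (7.23%, beside 7.7%) and at most 3 without any other library. The member above 0 with all libraries was *Ndufv3*, at 19.9, 16.8 and 18.8 FPKM in WT controls and at 16.3, 16.7 and 17.1 FPKM in WT PTX, with an interaction of 0.32 (SE 0.11, 95% interval 0.07 to 0.57; adjusted p = 0.724 in edgeR). The 95% intervals show what could not be seen with 3 or 2 libraries a group: for *Cox6a1* the interaction was 0.33 with an interval of -0.04 to 0.69. Markers above 0 at an unadjusted p under 0.05 were 3 of the 4 tested for spinal cord glia, 3 of 9 for macrophages and 1 of 2 tested for brown adipocytes. Below 0 were 2 of 6 fibroblast, 1 of 8 myelinating Schwann cell, 1 of 14 tested skeletal muscle and 1 of 14 sensory neuron markers. Of 8 satellite glial markers, 1 was above and 1 below. None was called, and their part in the members' values was not tested.

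*Ndufs5*, an accessory subunit of complex I, was the most variable of the abundant members. It was at 77.8, 58.6 and 65.8 FPKM in WT controls, 34.4, 65.7 and 4.64 FPKM in WT PTX, 64.5, 5.01 and 66.3 FPKM in KO controls, and 68.4 and 62.4 FPKM in KO PTX. Thus 8 libraries lay between 58.6 and 77.8 FPKM and 3 libraries of 2 groups lay below. *Ndufs5-ps*, a processed pseudogene that the choice of members leaves out, was at 1.54 to 3.20 FPKM in the same 8 libraries and at 73.2, 133 and 136 FPKM in WT PTX 1, WT PTX 3 and KO control 2. The sequences are shown because they differ by so little. *Ndufs5-ps* is 319 bases long and has 99.4% identity with the *Ndufs5* coding sequence from its start codon. The first 150 bases of *Ndufs5* from the start codon (gene at chr4:123712710-123718186, minus strand, mm10) and of *Ndufs5-ps* (chr16:42955631-42955949, plus strand, mm10) were read 5′ to 3′ from the GENCODE M21 transcripts, with the only 2 bases that differ over the 319 in capitals:
Ndufs5: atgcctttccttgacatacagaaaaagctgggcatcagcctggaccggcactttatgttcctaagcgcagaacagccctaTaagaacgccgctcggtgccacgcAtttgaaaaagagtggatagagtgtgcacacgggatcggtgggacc
Ndufs5-ps: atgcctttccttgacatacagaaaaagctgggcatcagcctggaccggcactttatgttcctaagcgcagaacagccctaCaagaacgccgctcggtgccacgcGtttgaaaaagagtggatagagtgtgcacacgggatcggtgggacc

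Counted from 1 at the A of the start codon, with the *Ndufs5* base first, the differences are T81C and A105G, so the stretches of 80 bases before the first and 214 bases after the second are the same in both. A read that falls within those stretches can be placed at either locus. *Ndufs5* held 98.5% to 99.1% of the counts of both rows in the 8 libraries, 55.9% in WT PTX 1, 8.65% in WT PTX 3 and 9.07% in KO control 2. The counts of both rows together were 50.1 to 73.8 CPM (counts scaled to a common library total) in every library, which is the range that the plot of both rows shows. In the fit, *Ndufs5* alone had log2 fold changes of -1.05 for PTX in WT (SE 0.89, adjusted p = 0.604 in edgeR) and of 1.06 for KO against WT after PTX (SE 1.00, adjusted p = 0.993 in edgeR). With both rows summed, an alternative chosen after the data were seen, these became -0.18 and 0.14. The level of *Ndufs5* in those 3 libraries therefore cannot be read from its own row. What sets the split was not tested.

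**Figure D4:**
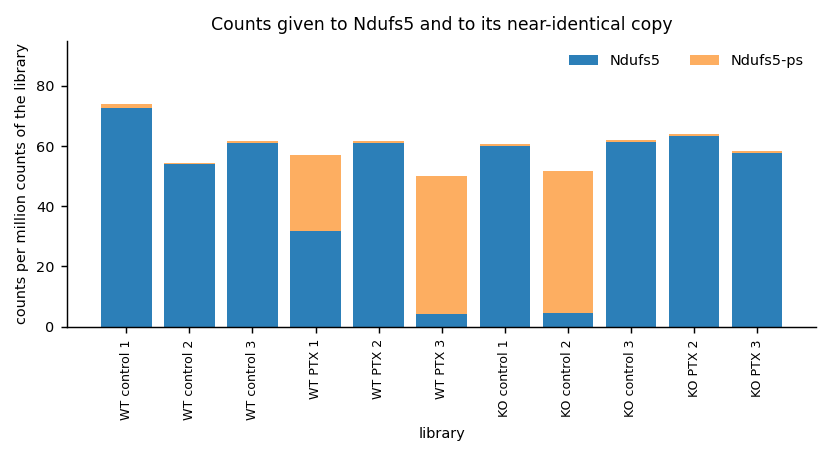
Stacked bars give CPM, counts scaled to a common library total, (y axis, from 0) for Ndufs5 (blue) and Ndufs5-ps (orange) in each of the 11 libraries (x axis). The stacks total 50.1 to 73.8, and Ndufs5-ps takes most of the stack in WT PTX 3 and KO control 2 and part of it in WT PTX 1.

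Other members also have near-identical copies. At least 95% identity over at least 200 bases of transcript was found with a gene at another locus for 24 of 87 nuclear and 9 of 13 mitochondrial members. For 12 nuclear and 7 mitochondrial members a copy reached at least 10% of the member's own mean FPKM. Over the 13 nuclear pairs whose shares were computed, the member's share ranged most for *Ndufs5*. The next widest was *Ndufa12* with *Ndufa12-ps* (99.5% identity over 402 bases), where the member held 39.0% to 66.1% of the counts of both. *Ndufb4* and *Ndufb4c*, both members, are identical over 390 bases, and *Ndufb4* held 75.6% to 84.7%. Among mitochondrial members, *mt-Co2*, *mt-Co3*, *mt-Nd4l*, *mt-Nd3* and *mt-Atp6* each have a nuclear unprocessed pseudogene of at least 99.7% identity, and in each pair the member held 48.6% to 50.8% of the counts in every library. Reads within such stretches match both loci, and which locus they came from was not tested.

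Complex IV has isoforms that are typical of certain tissues, and most were near the floor in the DRG. The muscle forms *Cox6a2* and *Cox7a1* were at 0.14 to 3.54 FPKM and 0.62 to 3.32 FPKM, beside 155 to 229 FPKM of *Cox6a1* and 51.4 to 95.01 FPKM of *Cox7a2*, their broadly expressed partners. *Cox8b*, another muscle form, was at 0 to 1.57 FPKM and was listed at 0 in 5 libraries. *Cox4i2*, a form known from lung and from low oxygen, was at 0.44 to 1.65 FPKM, beside 136 to 210 FPKM of *Cox4i1*. *Cox6b2* and *Cox7b2*, known from testis, were at 0.86 to 2.23 FPKM and 0 to 0.32 FPKM, beside 96.4 to 180 FPKM of *Cox6b1* and 60.8 to 94.5 FPKM of *Cox7b*.

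*Cox6a2* had the widest spread of all tested members, a ratio of 25.3 from highest to lowest library. It was at 3.54, 0.14 and 2.77 FPKM in WT controls, 0.56, 1.33 and 0.76 FPKM in WT PTX, 1.78, 2.53 and 1.69 FPKM in KO controls, and 0.71 and 0.53 FPKM in KO PTX. *Cox7a1* was at 3.32, 0.91 and 1.28 FPKM, 1.4, 1.95 and 0.62 FPKM, 2.77, 2.31 and 2.06 FPKM, and 1.71 and 0.67 FPKM in the same order. In both genes all KO PTX libraries were below all KO controls, with log2 fold changes of -1.67 (SE 0.95, adjusted p = 0.999 in edgeR) and -0.94 (SE 0.51, adjusted p = 0.999 in edgeR), and for PTX in WT the groups overlapped, with log2 fold changes of -1.27 (SE 0.80, adjusted p = 0.487 in edgeR) and -0.52 (SE 0.44, adjusted p = 0.604 in edgeR).

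Skeletal muscle markers also varied widely between libraries. Their summed FPKM was 702, 20.4 and 618 in WT controls, 69.4, 235 and 5.27 in WT PTX, 517, 753 and 150 in KO controls, and 128 and 89.8 in KO PTX. All 17 markers were in the table, 15 were above 0 in every library, and *Myh2* and *Myh7* were at 0 in 4 libraries and 1 library. The order of the libraries was not exactly the same as for either isoform. *Cox7a1* was at 1.28 FPKM in WT control 3, where the marker sum was 618 FPKM, and at 2.06 FPKM in KO control 3, where it was 150 FPKM. *Cox6a2* was highest in WT control 1, WT control 3, KO control 2 and KO control 1, which also had the highest marker sums, 702, 618, 753 and 517 FPKM. The lowest *Cox6a2* was in WT control 2, and the lowest marker sum in WT PTX 3. The part of muscle RNA in the isoforms' values was not tested. With the mean level of these markers as a further covariate, the log2 fold change of *Cox6a2* for PTX in WT was 0.64 and that of *Cox7a1* 0.04, both reversed, and for PTX in KO they were -0.335 and -0.44. The nuclear median for PTX in WT was then -0.07.

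**Figure D5:**
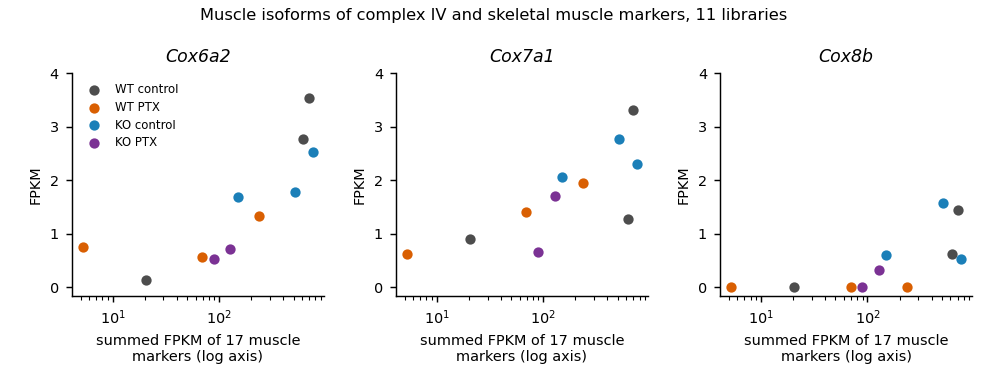
Each point is 1 of 11 libraries: the FPKM of Cox6a2, Cox7a1 or Cox8b (y axis) against the summed FPKM of 17 skeletal muscle markers (x axis, log scale), coloured by group. Of the 3 libraries with a marker sum above 600 FPKM, WT control 1 held the highest Cox6a2 (3.54) and Cox7a1 (3.32) of all 11. That library was also highest for 67 of the 83 tested nuclear members. WT control 3, another of the 3, had less Cox7a1 than every KO control.

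The highest library was under 2 times the lowest for 71 of 83 nuclear and 11 of 13 mitochondrial tested members. The share of all tested genes under this ratio was not computed. The median of this ratio was 1.51 over nuclear and 1.43 over mitochondrial members. Above 2 were *Cox6a2*, *Ndufs5*, *Cox7a1*, *Cox4i2*, the ε subunit gene of ATP synthase *Atp5e* (3.33), *Cox6c2*, *Ndufa2* (2.74), *Cox6b2*, *Atp5g3* (2.21), *Ndufc1*, *Atp5k* and *Ndufa4l2*, and *mt-Nd4l* (2.84) and *mt-Nd5* (2.13). *Atp5e* was at 21.6, 13.7 and 13.1 FPKM in WT controls, 12.3, 15.4 and 8.44 FPKM in WT PTX, 14.2, 9.22 and 15.3 FPKM in KO controls, and 10.9 and 6.49 FPKM in KO PTX, and its 3 lowest libraries were WT PTX 3, KO control 2 and KO PTX 3. *mt-Nd4l* was at 832 FPKM in WT control 1 and at 1716 to 2360 FPKM in the other 10. Members of a set varied together over the 11 libraries: the median Pearson r between pairs of log2(FPKM + 1) was 0.59 over nuclear members, with 91.4% of pairs above 0, and 0.77 over mitochondrial members, with 96.2% above 0. All points share the same libraries, including WT control 1. No such r was computed over all tested genes, so these values are not shown to be particular to the members.

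Within sexes, with 1 female a group and 2 males a group except 1 male in KO PTX, the direction for PTX in WT was the same: on log2(FPKM + 1) the nuclear median difference was -0.12 in males and -0.11 in the females, and the mitochondrial median difference 0.16 and 0.33. For PTX in KO the sexes differed in sign, with nuclear medians of 0.08 in males and -0.20 in the females and mitochondrial medians of -0.08 and 0.43. For KO against WT in controls the nuclear medians were -0.18 in males and 0.03 in the females, and the mitochondrial medians 0.16 and -0.09. After PTX they were 0.03 and -0.11 for nuclear and -0.06 and 0.00 for mitochondrial members. The male values for PTX in WT and for KO against WT in controls include WT control 1. Its median deviation over nuclear members, from each member's median over 11 libraries, was 0.31 on log2(FPKM + 1). That deviation was -0.06 in WT control 2, 0.00 and 0.03 in the male WT PTX libraries, and 0.00 and -0.09 in the male KO controls. Each female value rests on 1 mouse a group, and replicate 3 is also the female in every group, so these cannot be told apart.

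Genes that build or regulate the complexes were also counted. Of 90 genes in 8 lists (assembly factors of complexes I, II, III and IV and of ATP synthase, upkeep of mitochondrial DNA and RNA, regulators of OXPHOS genes, and the tricarboxylic acid cycle), 88 were tested and 0 were called in any comparison. At an unadjusted p under 0.05, 2 of the 88 were higher and 1 lower for PTX in WT, beside 6.59% of all genes higher and 6.87% lower. *Tfb2m*, a mitochondrial transcription factor, had a log2 fold change of 0.30 (SE 0.10, adjusted p = 0.284 in edgeR) and *Pprc1*, a PGC-1-related coactivator, of -0.34 (SE 0.11, adjusted p = 0.27 in edgeR). For KO against WT in controls, the complex IV copper chaperone *Sco2*, at 0.55 to 1.99 FPKM over the libraries, had the smallest p, with a log2 fold change of -1.14 (SE 0.30, adjusted p = 0.657 in edgeR).

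Promoters of 68 of the 87 nuclear members were matched by symbol to RefSeq (GRCm38.p6), each 250 bases before to 50 after the gene start. NRF1 (nuclear respiratory factor 1) is a known regulator of OXPHOS genes, and its palindrome (the 10 letters in capitals below) was in 5 of the 68 (7.35%) and in 1.07% of all 27025 symbols with a promoter. AAGATGGCG, the core known for YY1, was in 7 (10.3%) against 1.64%, and CCGGAAGT, known for ETS factors, in 5 (7.35%) against 4.31%. Both strands were searched, and no member held more than 1 of the 3 motifs. Windows of 60 bases around the NRF1 palindrome are shown, 5′ to 3′ on the gene's strand with the palindrome in capitals, for the 4 members that hold it before the gene start: *Atp5g2* (chr15:102671055-102671114, minus strand), *Atp5k* (chr5:108434415-108434474, minus strand), *Cox6a1* (chr5:115349086-115349145, minus strand) and *Ndufa11* (chr17:56717677-56717736, plus strand):
Atp5g2: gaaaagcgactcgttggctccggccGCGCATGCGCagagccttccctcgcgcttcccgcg
Atp5k: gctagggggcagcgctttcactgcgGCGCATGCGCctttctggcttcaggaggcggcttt
Cox6a1: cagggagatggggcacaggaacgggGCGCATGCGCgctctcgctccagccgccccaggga
Ndufa11: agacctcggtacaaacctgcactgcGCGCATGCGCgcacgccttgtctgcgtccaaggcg
The palindrome starts 42, 50, 162 and 60 bases before the gene start in this order. A match is a description of the letters and not a binding site. None of these 4 members passed the test in any comparison.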

How the data were processed

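Poly(A) RNA of DRGs was sequenced by the authors with a stranded kit, 1 library per mouse. The submitters' processing notes name cutadapt, FastQC, HISAT2, StringTie and mm10, with no versions. The authors deposited 1 table with FPKM, scaled for exon length and library size, and estimated counts, not normalized. The counts were treated as estimates and rounded. In the KO PTX group, titles and descriptions number the libraries differently, and the descriptions were used.

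Members and gene lists were chosen with earlier results of these data known. Genes with a mean of at least 0.5 FPKM (15087) were tested with edgeR 4.0.16 (R 4.3.3, TMM, quasi-likelihood, Benjamini-Hochberg adjusted p under 0.05), 11 libraries in one fit with sex as covariate. Replicates are separate mice. SE came from the fold change and the F statistic, and 95% intervals use the fit's 10.1 degrees of freedom. Alternatives were DESeq2 1.42.0, limma 3.58.1 on log2(FPKM + 1) and log2(FPKM + 0.1), other normalizations and covariates, no filter, each library left out, and 3 chosen after the data were seen (length trend removed, *Ndufs5-ps* counts added, copies' counts added). Copies were found with blastn 2.17.0+ in GENCODE M21. The fit was tested on simulated data. Named were the mitochondrial members, the highest nuclear member per complex, the SDH subunits, tissue isoforms, and up to 3 members per direction whose libraries did not overlap. *Ndufs5*, *Ndufv3*, *Atp5e*, *Ndufa12*, members with a wide spread, and members with an NRF1 motif or near-identical copy were named after their values were seen. Tables and plots were made in Python 3.11.15 with pandas 2.3.3 and matplotlib 3.10.9.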

Additional observations from a re-analysis of the deposited data

How the results depend on the processing

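Under all 23 alternatives, 0 nuclear and 0 mitochondrial members were called in each of the 5 comparisons. The 12 alternatives that keep all libraries moved no median by more than the spread between replicates (0.13 nuclear, 0.16 mitochondrial, log2). That spread is about as large as the nuclear medians of -0.13 for PTX in WT and for KO against WT in controls. Staying within it therefore cannot show that a median is stable. For PTX in WT the nuclear median was -0.07 with the muscle score and -0.01 without WT control 1, and neither counted as a move. The replicate block gave 0 called members, changed no call and gave nuclear medians of -0.13, -0.04, -0.12, -0.03 and 0.04 in the order of the comparisons. Correlations of deviations from group means ran from -0.23 to 0.23 over 15 same-numbered pairs of libraries, with a median of 0.06. Over 30 other pairs they ran from -0.23 to 0.24, with a median of -0.03. Centering groups of 3 or 2 libraries constrains these values, and replicate 3 is also the female. They therefore cannot show whether the numbers pair the mice. Leaving out 1 library gave nuclear medians of -0.23 to -0.01 for PTX in WT, -0.13 to 0.03 for PTX in KO, -0.22 to 0.01 for KO against WT in controls, -0.14 to 0.04 for KO against WT after PTX and -0.07 to 0.17 for the interaction, and mitochondrial medians of 0.10 to 0.26, -0.06 to 0.27, -0.025 to 0.21, -0.11 to 0.19 and -0.25 to 0.06. The moves past the spread came without WT control 1 (nuclear 0.012, KO against WT in controls), KO control 3 (nuclear 0.17 for the interaction, mitochondrial -0.057 for PTX in KO), KO PTX 3 (nuclear 0.16 for the interaction) and KO PTX 2 (mitochondrial 0.27 for the KO effect of PTX, and 0.19 between the genotypes after PTX). Of 32 fold changes of single members, 29 kept their direction throughout. Most of the 32 were picked from these same data, as members without overlap or with the smallest p in a comparison. Where groups do not overlap, leaving out 1 library keeps their order, so this count gives no support to the fold changes. *Ndufs5* for KO against WT in controls was -0.53, and 0.065 without KO control 2, with a range of -1.338 to 0.065 over libraries left out. For PTX in WT, *Cox6a2* was 0.64 with the muscle score, and *Cox7a1* 0.039 with that score and 0.038 without WT control 1, with a range of -0.932 to 0.038 over libraries left out. The causes were not tested.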
